A study of Mus musculus with 6 samples.

Results

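The genes described here are 10 regulators of mitochondrial biogenesis and of the transcription of mitochondrial DNA, out of 56941 genes in the count table. They were chosen by name and found through their Ensembl identifiers, and all 10 passed the filter for low counts. RNA was sequenced from cells isolated with magnetic beads from mouse lungs as primary endothelial cells, in 3 libraries of an endothelial knockout of Fundc1 (EC-KO, genotype label FUNDC1-KO) and 3 libraries of the floxed Fundc1 allele (FL, genotype label FUNDC1-FLOX). The product of Fundc1 is a mitophagy receptor anchored in the outer membrane of mitochondria, and the study's title concerns pulmonary hypertension. The sample titles label the cells PAECs, an abbreviation that the titles do not spell out. Dead cells were removed, and both groups were kept in the same endothelial medium with serum. The sources used here do not give the Cre driver, the antibody on the beads, the age of the mice, any pooling of animals or the time in culture. Separate animals behind the libraries of a group are not stated either, and the p-values therefore rest on the spread between these libraries, which may be technical.

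The PGC-1 coactivators have no DNA-binding domain of their own. They dock on transcription factors such as the estrogen-related receptor ERRα (Esrra), nuclear respiratory factor 1 (Nrf1) and the ETS factor GABPα (Gabpa), and so raise the transcription of nuclear genes for mitochondrial proteins. Among the targets of these factors are genes of the machinery that reads the mitochondrial genome: the packaging and promoter-bending protein TFAM, the promoter-melting factor TFB2M and the RNA polymerase POLRMT. TFB1M, a relative of TFB2M, methylates the small ribosomal RNA of the mitochondrion. In endothelium, PGC-1α is known for its links to oxidant defence and to the control of vessel growth.

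Promoter sequence is shown for the members called higher in the knockout libraries and for 2 core factors of mitochondrial transcription, Tfam and Polrmt, which were not called. The stretches are the 250 bases before the RefSeq start of each gene in GRCm38.p6, on the gene's strand. They are chr5:51567726-51567975 (minus strand) for Ppargc1a, chr19:46056289-46056538 (plus) for Pprc1, chr1:179546277-179546526 (minus) for Tfb2m, chr10:71238045-71238294 (minus) for Tfam and chr10:79746582-79746831 (minus) for Polrmt. The RefSeq start of Pprc1 lies inside the span that GENCODE gives the gene. Capitals mark matches, on either strand, to the GABPA (ETS) motif CCGGAAG or to the NRF1 motif (GCGCA, any base, then GCGC). The capitals at the end of the Polrmt line are the first bases of an NRF1 match, read on the opposite strand, that runs past the start of the gene.
Ppargc1a: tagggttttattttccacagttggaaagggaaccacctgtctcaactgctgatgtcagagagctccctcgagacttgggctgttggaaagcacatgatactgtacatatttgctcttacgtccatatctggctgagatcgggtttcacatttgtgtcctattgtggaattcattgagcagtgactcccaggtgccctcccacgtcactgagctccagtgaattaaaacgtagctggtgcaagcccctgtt
Pprc1: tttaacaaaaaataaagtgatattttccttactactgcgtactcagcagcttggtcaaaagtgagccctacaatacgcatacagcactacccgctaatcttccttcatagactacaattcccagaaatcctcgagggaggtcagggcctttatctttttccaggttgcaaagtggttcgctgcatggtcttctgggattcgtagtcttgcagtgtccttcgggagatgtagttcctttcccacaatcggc
Tfb2m: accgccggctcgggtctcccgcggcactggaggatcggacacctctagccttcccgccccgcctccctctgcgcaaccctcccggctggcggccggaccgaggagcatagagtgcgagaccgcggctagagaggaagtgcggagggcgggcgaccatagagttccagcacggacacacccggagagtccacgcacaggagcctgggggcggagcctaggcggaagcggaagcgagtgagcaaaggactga
Tfam: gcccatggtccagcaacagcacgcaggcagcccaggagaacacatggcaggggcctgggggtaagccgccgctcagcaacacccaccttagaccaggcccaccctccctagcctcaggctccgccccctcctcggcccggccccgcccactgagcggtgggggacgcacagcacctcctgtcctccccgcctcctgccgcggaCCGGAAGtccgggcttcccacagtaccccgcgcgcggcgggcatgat
Polrmt: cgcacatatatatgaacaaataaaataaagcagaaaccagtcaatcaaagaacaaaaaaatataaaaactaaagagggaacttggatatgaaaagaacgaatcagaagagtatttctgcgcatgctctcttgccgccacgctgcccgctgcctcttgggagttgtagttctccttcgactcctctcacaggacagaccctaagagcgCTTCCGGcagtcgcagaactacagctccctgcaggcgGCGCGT

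RefSeq promoter windows, from 250 bases before to 50 after the start, were at hand for 9 of the 10 members (10 windows, since Nrf1 has 2). The GABPA motif was found in 3 of these windows, those of Tfam, Polrmt and Gabpa itself, and in 8.86% of 32851 windows of all genes. Polrmt was the 1 member with the NRF1 motif, which starts 6 bases before the gene's start and again, overlapping, at the start. That motif was in 4.6% of all windows. The ERR motif AAGGTCA (4.72% of all windows) and the CREB motif TGACGTCA (1.79%) were in 0 of the 10 windows. The promoters of Ppargc1a, Pprc1 and Tfb2m, shown above, held 0 matches to any of the 4 motifs. A match is a string of letters and not a measured binding site. Only exact strings were counted, so 0 matches do not show that a binding site is absent.

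Total gene counts were between 26.7 M and 34.3 M per library. Fundc1 was at 14.1, 18.1 and 12.8 CPM (gene counts set relative to library size, scaled with TMM factors) in EC-KO 1, 2 and 3, against 25.03, 31.9 and 30.7 CPM in FL 1, 2 and 3 (log2 fold change -0.96 ± 0.19 SE; edgeR, adjusted p = 0.00796), so transcripts remained in every knockout library. With libraries scaled to the summed counts of the endothelial markers, Fundc1 was at 0.26 and was not called (edgeR, adjusted p = 0.490). That scaling moved the median gene to 1.30. Markers of other lung cells were detected beside endothelial ones. Endothelial markers fell in 10 of 14 cases (4 without EC-KO 1 or FL 3, 5 without EC-KO 3 or FL 2), with summed levels of 3275 to 6684 CPM in EC-KO against 8311 to 11474 CPM in FL. Epithelial markers rose in 12 of 12 cases, with summed levels of 11221 to 16652 CPM in EC-KO against 1801 to 4353 CPM in FL. Fibroblast markers rose in 6 of 10 cases (719 to 1607 CPM in EC-KO against 378 to 490.3 CPM in FL) and macrophage markers fell in 9 of 10 (2358 to 3182 CPM in EC-KO against 5303 to 6912 CPM in FL). Of the smooth muscle and pericyte markers, 8 of 10 fell (4 without EC-KO 1), with summed levels of 296 to 437 CPM in EC-KO against 621 to 871 CPM in FL. No marker of these 5 lists was at 0 counts in any library. The part of these shifts in the results below was not tested, and in bulk RNA fewer cells of a type and less RNA per cell cannot be told apart.

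Of the 10 regulators, 3 rose and 1 fell in the knockout libraries, in edgeR's quasi-likelihood test with Benjamini-Hochberg adjustment over all genes and a threshold of 0.05. The coactivator genes Ppargc1a and Pprc1 and the transcription factor gene Tfb2m rose, and the coactivator gene Ppargc1b fell. The 4 calls are 40.0% of the members, beside 27.1% of all 18562 genes tested (13.5% higher and 13.5% lower). The ranges of the groups did not overlap for 7 of the 10 members, beside 45.4% of all genes. The median log2 fold change over the members was -0.02, beside 0.03 over all genes tested. Scaling to the summed counts of the endothelial markers moved the median log2 fold change of all genes to 1.30, the share of all calls that were higher to 98.3% (50.01% with TMM scaling) and the calls among members to 7 higher and 0 lower. Relative to the median gene, the 4 called members stood at nearly the same values under that scaling as with TMM scaling: 1.71 and 1.74 for Ppargc1a, 0.92 and 0.96 for Pprc1, 1.16 and 1.08 for Tfb2m, and -1.37 and -1.38 for Ppargc1b. A change of scaling shifts all genes by nearly the same amount, so this agreement follows from the method and does not test the calls. When 1 library was left out, 2 members rose in the fits that lacked EC-KO 3 or FL 3, 4 in the fit that lacked EC-KO 2, and 3 in the others. A fall was called in 1 of these 6 fits, the one lacking FL 3.

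**Figure D1:**
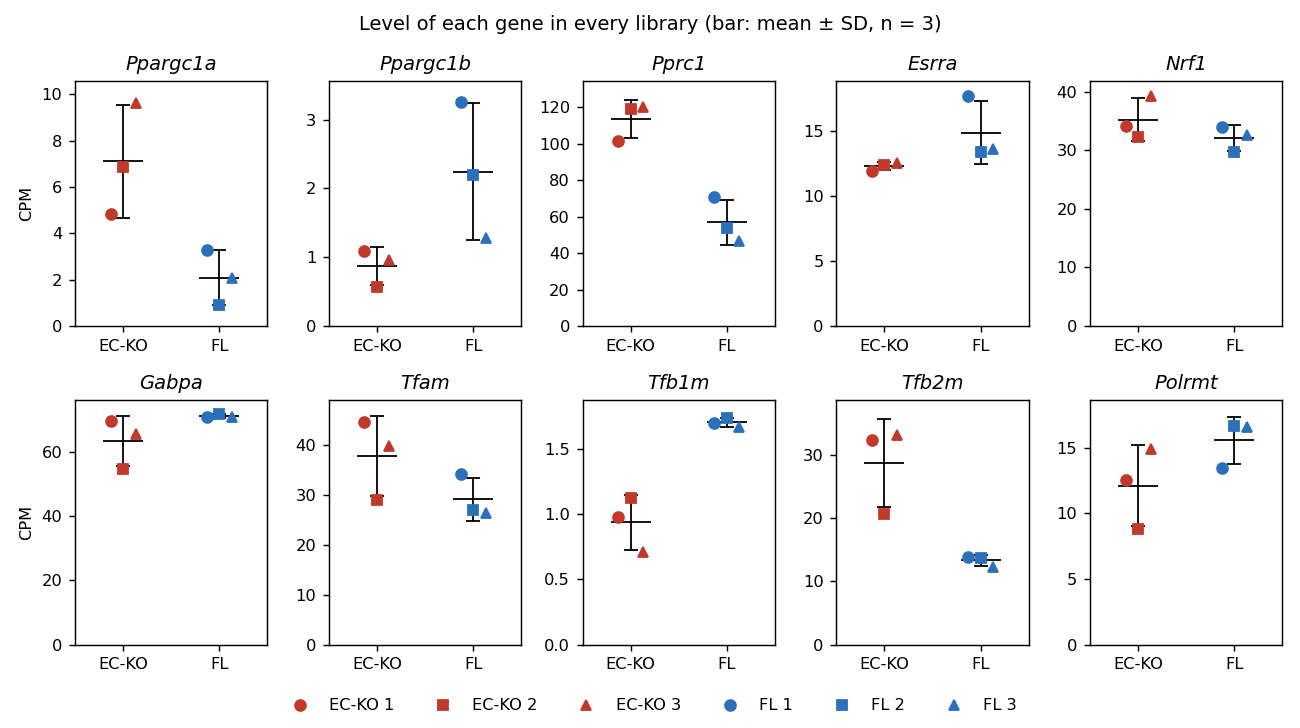
Level of each of the 10 genes in CPM (vertical axis, a scale per gene) in the 3 EC-KO libraries (red) and the 3 FL libraries (blue), with mean ± SD. All EC-KO points of Ppargc1a, Pprc1 and Tfb2m lie above all FL points, and all EC-KO points of Ppargc1b, Esrra, Gabpa and Tfb1m lie below them.

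Ppargc1a encodes PGC-1α, the founding member of the family, which is induced by cold, exercise and energy stress in other tissues. It lies on chromosome 5, 51454250 to 51567726, minus strand (GENCODE M21, GRCm38). Its level was 4.82, 6.86 and 9.64 CPM in EC-KO 1, 2 and 3, against 3.29, 0.916 and 2.07 CPM in FL 1, 2 and 3. Every knockout library was above every floxed library, and the lowest level was that of FL 2. The means were 7.11 ± 2.42 CPM in EC-KO and 2.09 ± 1.19 CPM in FL (SD, n = 3 each). EC-KO over FL, this is 3.41 times, or 1.77 ± 0.45 on the log2 scale (SE; edgeR, adjusted p = 0.0193). These levels rest on 167, 219 and 312 counts in EC-KO 1, 2 and 3 and on 87, 30 and 68 counts in FL 1, 2 and 3. The call did not hold without EC-KO 3 (1.48, adjusted p = 0.0611 in edgeR) or without FL 3 (1.74, adjusted p = 0.0729), and the fold change was between 1.40 and 2.21 over the 6 comparisons that left out 1 library. Epithelial, erythroid and platelet, and fibroblast markers were higher in the same libraries (median log2 fold changes of the lists 2.48, 1.66 and 1.24). Called higher were 12 of 12, 5 of 8 and 6 of 10 of these markers. Any part of these shifts in the level of Ppargc1a was not tested, and Pprc1 and Tfb2m rose in the same libraries.

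Ppargc1b encodes PGC-1β, which is similar in sequence to PGC-1α and is known for driving oxidative metabolism in muscle, fat and macrophages. The gene is on chromosome 18, 61298136 to 61400431, minus strand (GRCm38). It was measured at 1.10, 0.564 and 0.958 CPM in EC-KO 1, 2 and 3, against 3.26, 2.20 and 1.28 CPM in FL 1, 2 and 3. All knockout values were below all floxed values, although EC-KO 1 and FL 3 were close. Counts were low, at 38, 18 and 31 in the knockout libraries and 86, 72 and 42 in the floxed libraries. The log2 fold change was -1.35 ± 0.43 (SE; edgeR, adjusted p = 0.0470), just inside the threshold. It was not called without EC-KO 1, 2 or 3 (adjusted p = 0.0837, 0.0766 and 0.0874 in edgeR) or without FL 1 or FL 2 (0.138 and 0.106), with fold changes of -1.67 to -1.02 over the 6 comparisons without 1 library. Under scaling to endothelial markers it was at -0.07 (edgeR, adjusted p = 0.919). Markers of macrophages, endothelium, and smooth muscle and pericytes were lower in the same libraries (median log2 fold changes of the lists -2.07, -1.12 and -1.03). Any part of these shifts in the level of Ppargc1b was not tested.

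The pair can be set against each other within a library, which removes the scaling between libraries. Per kilobase, and with 1 count added to each gene, the log2 ratio of Ppargc1a to Ppargc1b was 1.38, 2.81 and 2.57 in EC-KO 1, 2 and 3, against -0.71, -1.96 and -0.04 in FL 1, 2 and 3. With the exon lengths of the table, Ppargc1a was thus above Ppargc1b in every knockout library and below it in every floxed library, FL 3 being nearly even. Which gene is higher in floxed libraries rests on the length used, since per kilobase of coding sequence the FL means were 0.875 CPM for Ppargc1a and 0.726 CPM for Ppargc1b, whereas the difference between groups hardly depends on it. The means differed by 3.16 on the log2 scale. An exact permutation test over the libraries, two-sided, gave p = 0.1, the smallest value that 3 against 3 libraries allow. Both genes already separated the groups, in opposite directions, so the ratio had to separate them too. This p-value was thus fixed by the levels above and adds nothing to the calls. The difference in means was between 2.63 and 3.59 when 1 library was left out.

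Pprc1 encodes PRC, the PGC-1-related coactivator, which binds NRF1 and is known as a fast-responding gene after serum stimulation of cultured cells. It lies on chromosome 19, 46044886 to 46072915, plus strand (GRCm38). Levels were 101, 119 and 120.1 CPM in EC-KO 1, 2 and 3, against 70.5, 53.7 and 46.6 CPM in FL 1, 2 and 3. The knockout libraries were close to each other (coefficient of variation 9.27%) and all above the floxed ones (21.6%), among which FL 1 was highest. Means of 113 ± 10.5 CPM in EC-KO and 56.9 ± 12.3 CPM in FL (SD, n = 3 each) gave a log2 fold change of 0.99 ± 0.19 (SE; edgeR, adjusted p = 0.00626), close to a doubling (1.99 times). The call held in each of the 6 comparisons without 1 library (0.84 to 1.14, highest adjusted p = 0.0376 in edgeR). Its exons overlap those of Ldb1 on the opposite strand, and whether the counting used strand is not stated, so reads could be split or shared between them. Ldb1 itself had a log2 fold change of 0.02 (edgeR, adjusted p = 0.937).

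The 3 transcription factors on which the coactivators dock did not pass the test. Esrra, which encodes ERRα, was at 11.9, 12.4 and 12.5 CPM in EC-KO 1, 2 and 3, against 17.7, 13.4 and 13.6 CPM in FL 1, 2 and 3. The groups did not overlap, but FL 2 and FL 3 were within about 1 CPM of EC-KO 3, and the log2 fold change was -0.27 ± 0.18 (SE; edgeR, adjusted p = 0.293). Nrf1, the nuclear respiratory factor and not the stress factor Nfe2l1 that shares its nickname, stood at 34.2, 32.2 and 39.3 CPM in EC-KO 1, 2 and 3, against 34.0, 29.7 and 32.6 CPM in FL 1, 2 and 3. Its groups overlapped, with a log2 fold change of 0.13 ± 0.16 (SE; edgeR, adjusted p = 0.554). For Gabpa, the DNA-binding subunit of GABP, levels of 69.9, 54.9 and 65.7 CPM in EC-KO 1, 2 and 3 stood against 71.0, 72.0 and 71.0 CPM in FL 1, 2 and 3. The floxed values were nearly identical (coefficient of variation 0.810%) and all above the knockout values, of which EC-KO 2 was lowest. The log2 fold change was -0.17 ± 0.15 (SE; edgeR, adjusted p = 0.433). Exons of Esrra overlap those of Trmt112, and exons of Gabpa those of Atp5j, each on the opposite strand.

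Tfb2m was the factor of mitochondrial transcription that rose. TFB2M opens the promoter for POLRMT, so that RNA synthesis can start. The gene lies on chromosome 1, 179528055 to 179546267, minus strand (GRCm38). It reached 32.4, 20.6 and 33.1 CPM in EC-KO 1, 2 and 3, against 13.9, 13.6 and 12.3 CPM in FL 1, 2 and 3. EC-KO 2 was lower than the other knockout libraries but still above all floxed libraries, which were close to each other (coefficient of variation 6.50%). Mean levels were 28.7 ± 6.99 CPM in EC-KO and 13.3 ± 0.863 CPM in FL (SD, n = 3 each), with a log2 fold change of 1.11 ± 0.21 (SE; edgeR, adjusted p = 0.00658) or 2.16 times. The rise was called without each of the 6 libraries in turn, with fold changes of 0.98 to 1.27 and a highest adjusted p of 0.0383 in edgeR.

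Tfam and Polrmt, the partners of Tfb2m at the mitochondrial promoter, were not called. Tfam was at 44.6, 28.9 and 39.7 CPM in EC-KO 1, 2 and 3, against 34.2, 27.0 and 26.3 CPM in FL 1, 2 and 3 (log2 fold change 0.37 ± 0.20 SE; edgeR, adjusted p = 0.198). Groups overlapped, because EC-KO 2 was below FL 1. Without EC-KO 2 the gene was called higher (0.50, edgeR, adjusted p = 0.0369), and in each of the other 5 comparisons without 1 library it was not. Polrmt stood at 12.5, 8.83 and 15.0 CPM in EC-KO 1, 2 and 3, against 13.5, 16.6 and 16.6 CPM in FL 1, 2 and 3. FL 1 lay between knockout values, and the log2 fold change was -0.36 ± 0.23 (SE; edgeR, adjusted p = 0.260).

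Tfb1m, the methyltransferase gene, had the lowest mean CPM of the members in FL, and the lowest beside Ppargc1b in EC-KO. Its level was 0.981, 1.13 and 0.711 CPM in EC-KO 1, 2 and 3, against 1.70, 1.74 and 1.67 CPM in FL 1, 2 and 3, which rest on 23 to 36 counts per EC-KO library and 45 to 57 counts per FL library. Groups did not overlap, and the floxed libraries were nearly equal. The log2 fold change of -0.86 ± 0.33 (SE) missed the threshold (edgeR, adjusted p = 0.0827, unadjusted p = 0.0287). In each comparison without 1 library it also missed it, with adjusted p-values of 0.0578 to 0.218 in edgeR. Exons of Tfb1m overlap those of Tiam2 on the opposite strand.

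**Figure D2:**
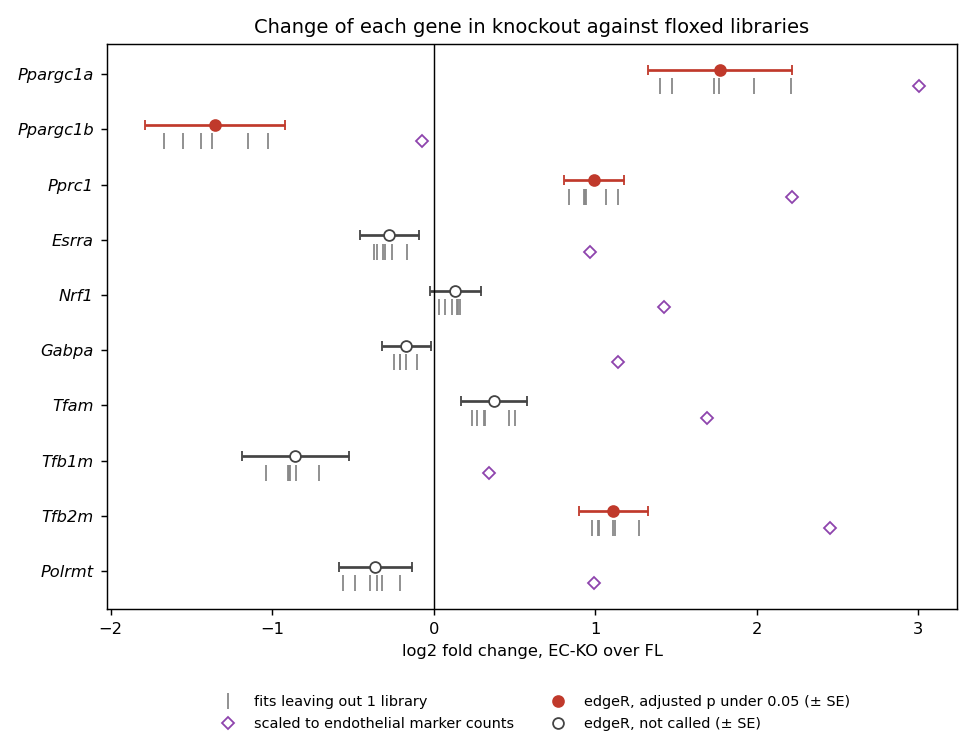
Log2 fold change of EC-KO over FL for each gene (horizontal axis), with SE, as circles that are filled where the adjusted p was under 0.05. Grey ticks are the values when 1 library was left out, and purple diamonds those with libraries scaled to endothelial marker counts. Ppargc1a, Pprc1 and Tfb2m lie above 0 with every setting drawn, as do Nrf1 and Tfam, which were not called. Under the endothelial scaling only Ppargc1b lies below 0.

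Levels of different members can be compared per length, as CPM per kilobase of the summed exon length that the table gives. In the knockout libraries Pprc1 was highest at 18.0 ± 1.67 CPM per kilobase (SD, n = 3), above Gabpa (11.2), Tfb2m (10.2) and Tfam (8.51). Among the last 3 the ranges of neighbours overlapped. Nrf1 (3.43) came next, then Esrra (2.79) and Polrmt (2.59), whose ranges overlapped. Ppargc1a followed at 1.08 ± 0.367, and Tfb1m (0.260) and Ppargc1b (0.219) closed the order with overlapping ranges.

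In the floxed libraries Gabpa led at 12.5 ± 0.102 CPM per kilobase (SD, n = 3), before Pprc1 (9.06) and Tfam (6.56), which overlapped, and Tfb2m (4.73). Esrra (3.37), Polrmt (3.32) and Nrf1 (3.12) overlapped as neighbours. Ppargc1b (0.562), Tfb1m (0.473) and Ppargc1a (0.317 ± 0.180) were lowest, each overlapping its neighbour. By exon length, Ppargc1a thus took the last place in floxed libraries and the place above Tfb1m and Ppargc1b in knockout libraries. The order rests on the length used: with the longest coding length in place of the exon length, 8 of 10 members kept their place in EC-KO and 1 of 10 in FL, with Tfam at the top in EC-KO and Ppargc1b below Ppargc1a in FL.

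**Figure D3:**
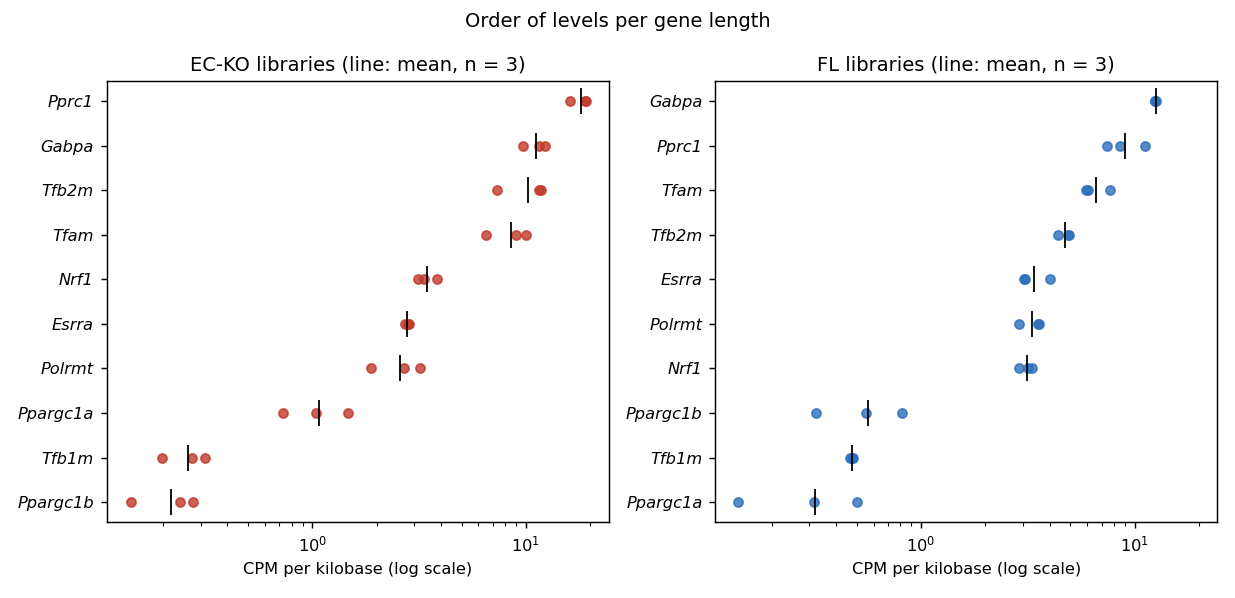
Level of each gene in CPM per kilobase of exon length (horizontal axis, log scale) in the 3 EC-KO libraries (left) and the 3 FL libraries (right), ordered by the mean, which the line marks. Pprc1 is first in EC-KO and Gabpa in FL, and Ppargc1a is last in FL at 0.317.

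The genes whose profile over the 6 libraries lay nearest to a member were found among 12612 named genes of sufficient level, by the root mean square distance of centred log2 CPM. Nearest to Ppargc1a were Lrrc8e (distance 0.18), Dnah7b (0.20) and Slc16a11 (0.20). For Ppargc1b they were Cd300e (0.18), Il27ra (0.20) and Slc37a2 (0.23). Tfam had closer neighbours, Lgmn (0.052), Ccdc59 (0.053) and Uck1 (0.055). These distances describe 6 libraries and are no test.

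Genes that act on PGC-1 moved in both directions. Of 32 kinases, acetyltransferases, deacetylases, corepressors and other regulators, 4 rose and 7 fell (34.4% called, beside 27.1% of all genes tested; median log2 fold change 0.15). Sirt1, the deacetylase that activates PGC-1α, was at 135, 144 and 135 CPM in EC-KO 1, 2 and 3, against 85.8, 97.7 and 83.4 CPM in FL 1, 2 and 3 (log2 fold change 0.63; edgeR, adjusted p = 0.0138). Fnip1, a partner of folliculin, rose too (0.93; edgeR, adjusted p = 0.00833). Folliculin's own gene Flcn rose by 1.06 on the log2 scale (edgeR, adjusted p = 0.0140). The knockout and floxed ranges of these 3 genes did not overlap.

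Both catalytic subunits of AMP-activated kinase, which phosphorylates PGC-1α, fell. Prkaa1 was at 42.5, 35.7 and 45.6 CPM in EC-KO 1, 2 and 3, against 62.0, 71.7 and 73.3 CPM in FL 1, 2 and 3 (log2 fold change -0.74; edgeR, adjusted p = 0.0106), and Prkaa2 had a log2 fold change of -0.95 (edgeR, adjusted p = 0.0197). The p38 kinase gene Mapk14 (-0.81; edgeR, adjusted p = 0.00408) and Rnf34 (-0.87; edgeR, adjusted p = 0.00772), a ubiquitin ligase known to act on PGC-1α in brown fat, were lower as well. Kat2a, which encodes the acetyltransferase GCN5 that inhibits PGC-1α, fell by 0.84 on the log2 scale (edgeR, adjusted p = 0.0101). Flcn, Prkaa1, Prkaa2 and Kat2a were chosen after their values were seen. Under scaling to endothelial markers, Prkaa1, Prkaa2, Mapk14, Rnf34 and Kat2a changed sign (0.58, 0.28, 0.46, 0.37 and 0.41). The calls in this group numbered 2 higher and 4 lower without EC-KO 1, 1 higher and 4 lower without FL 3, and 3 lower without FL 2. Sirt1 was not called without FL 1 or FL 3 (edgeR, adjusted p = 0.0532 and 0.0852), Flcn without EC-KO 1, FL 1 or FL 3 (0.0575, 0.0501 and 0.0655), Prkaa2 without EC-KO 1, FL 2 or FL 3 (0.0647, 0.0773 and 0.0701), and Kat2a without FL 2 (0.0504).

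Nuclear partners of the coactivators were called in 6 of 25 tested cases, 3 higher and 3 lower (24.0%, beside 27.1% of all genes; median -0.03). The nuclear receptor gene Pparg, whose product gave the coactivator family its name, was at 9.43, 8.55 and 9.67 CPM in EC-KO 1, 2 and 3, against 23.8, 39.8 and 25.9 CPM in FL 1, 2 and 3 (log2 fold change -1.69; edgeR, adjusted p = 0.00147). Knockout values were close together and all under the lowest floxed value. Rxra, the partner with which PPARγ binds DNA, fell by 1.30 on the log2 scale (edgeR, adjusted p = 0.00381), and the glucocorticoid receptor gene Nr3c1 fell by 1.10 (edgeR, adjusted p = 0.00180). Higher were Med1, a Mediator subunit that PGC-1α binds (1.09; edgeR, adjusted p = 0.00662), and the factor gene Mef2d (1.11; edgeR, adjusted p = 0.0112). Gabpb1, the partner subunit of Gabpa, rose by 0.51 on the log2 scale (edgeR, adjusted p = 0.0384). Rxra and Gabpb1 were chosen after their values were seen. Under scaling to endothelial markers none of the 3 falls was called: Pparg was at -0.40 and Rxra at -0.086 (edgeR, adjusted p = 0.370 and 0.825), and Nr3c1 changed sign (0.18). Gabpb1 was not called without EC-KO 1, EC-KO 3, FL 1, FL 2 or FL 3 (edgeR, adjusted p = 0.119, 0.0753, 0.0535, 0.168 and 0.139) and Mef2d without FL 3 (0.0602). Calls numbered 6 higher and 6 lower without EC-KO 2, and 1 higher without FL 3.

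Nuclear target genes of PGC-1, ERRα, NRF1 and GABPA did not move one way. Of 34 tested, 2 rose, 5 fell and 27 were not called (20.6% called, beside 27.1% of all genes; median -0.07). Pdk4, the kinase that restrains pyruvate dehydrogenase and a known target of PGC-1α with ERRα, was at 68.0, 126 and 80.1 CPM in EC-KO 1, 2 and 3, against 42.7, 38.7 and 46.9 CPM in FL 1, 2 and 3 (log2 fold change 1.10; edgeR, adjusted p = 0.0103). The complex III subunit gene Uqcrh rose by 0.63 on the log2 scale (edgeR, adjusted p = 0.0164). Ucp2, an uncoupling protein gene of many cell types, was at 258, 390 and 236 CPM in EC-KO 1, 2 and 3, against 764, 910.2 and 1276 CPM in FL 1, 2 and 3 (-1.74; edgeR, adjusted p = 0.00257). All knockout values were below all floxed ones. Cpt1a, which admits long-chain fatty acids to mitochondria, fell by 1.03 on the log2 scale (edgeR, adjusted p = 0.00216) and changed sign under scaling to endothelial markers (0.25). Ucp2 was at -0.53 under that scaling and was not called (edgeR, adjusted p = 0.153). Leaving out EC-KO 1 gave 1 rise and 2 falls, and leaving out EC-KO 2 gave 8 falls. There were 3 falls without EC-KO 3, FL 2 or FL 3, with 0 rises in the FL 2 case and 1 in the FL 3 case. Pdk4 was not called without FL 2 (edgeR, adjusted p = 0.0502), nor Uqcrh without EC-KO 1, FL 2 or FL 3 (0.0652, 0.0854 and 0.0729).

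Genes for copying mitochondrial DNA were called in 3 of 14 cases (21.4%, beside 27.1% of all genes; median -0.03). Polg2, the accessory subunit of the mitochondrial DNA polymerase (0.62; edgeR, adjusted p = 0.0349), and the topoisomerase gene Top3a (1.13; edgeR, adjusted p = 0.0126) rose. The helicase and nuclease gene Dna2, which also serves nuclear DNA, fell by 1.24 on the log2 scale (edgeR, adjusted p = 0.0330) and changed sign under scaling to endothelial markers (0.10). The polymerase and helicase of the organelle, Polg and Twnk, were not among the called genes. Rises numbered 0 without EC-KO 1 or FL 3 and 1 without EC-KO 3, FL 1 or FL 2, and falls 0 without EC-KO 1 or FL 2. Polg2 was not called without EC-KO 1, EC-KO 3, FL 1, FL 2 or FL 3 (edgeR, adjusted p = 0.101, 0.118, 0.0672, 0.0845 and 0.164), Top3a without EC-KO 1 or FL 3 (0.0523 and 0.0633) and Dna2 without EC-KO 1 or FL 2 (0.0925 and 0.129).

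Among 11 genes that supply nucleotides to mitochondria, 2 rose and 3 fell (45.5% called, beside 27.1% of all genes; median -0.19). Dguok, the deoxyguanosine kinase of the organelle, was at 8.05, 8.27 and 5.81 CPM in EC-KO 1, 2 and 3, against 16.6, 15.7 and 22.6 CPM in FL 1, 2 and 3 (log2 fold change -1.31; edgeR, adjusted p = 0.00430). Rrm2b, the ribonucleotide reductase subunit of resting cells, was at 13.9, 16.4 and 13.96 CPM in EC-KO 1, 2 and 3, against 33.4, 30.7 and 33.6 CPM in FL 1, 2 and 3 (-1.14; edgeR, adjusted p = 0.00180). Both genes had groups that were far from overlapping, and under scaling to endothelial markers Rrm2b changed sign (0.098) while Dguok was at -0.050, and neither was called. The pyrimidine carrier gene Slc25a36 rose by 0.62 on the log2 scale (edgeR, adjusted p = 0.0472). That rise was not called without EC-KO 1, EC-KO 3, FL 1, FL 2 or FL 3 (edgeR, adjusted p = 0.151, 0.151, 0.0952, 0.119 and 0.183), and the rises of the list numbered 1, 1, 1, 0 and 0 in those comparisons.

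In the list for elongation, processing and stability of mitochondrial RNA, 3 of 25 tested genes rose and 1 fell (16% called, beside 27.1% of all genes; median 0.12). Supv3l1, the helicase of the mitochondrial RNA-degrading complex, was at 31.6, 17.4 and 27.2 CPM in EC-KO 1, 2 and 3, against 13.97, 14.7 and 13.9 CPM in FL 1, 2 and 3 (log2 fold change 0.84; edgeR, adjusted p = 0.0250). As for Tfb2m, EC-KO 2 was the knockout library nearest to the floxed ones. Nsun4, a methyltransferase of mitochondrial ribosomal RNA, rose by 0.74 on the log2 scale (edgeR, adjusted p = 0.0216), and Fastkd1 fell by 0.94 (edgeR, adjusted p = 0.0142) and changed sign under scaling to endothelial markers (0.30). Rises numbered 0 without EC-KO 1, EC-KO 3, FL 2 or FL 3, and falls 0 without EC-KO 1 or FL 2 and 2 without EC-KO 2. The calls of Supv3l1 and Nsun4 were lost in each comparison that gave 0 rises, with adjusted p-values of 0.0594 to 0.102 in edgeR, and Supv3l1 also without FL 1 (0.0704). Fastkd1 was not called without EC-KO 1 or FL 2 (0.0503 and 0.0560).

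**Figure D4:**
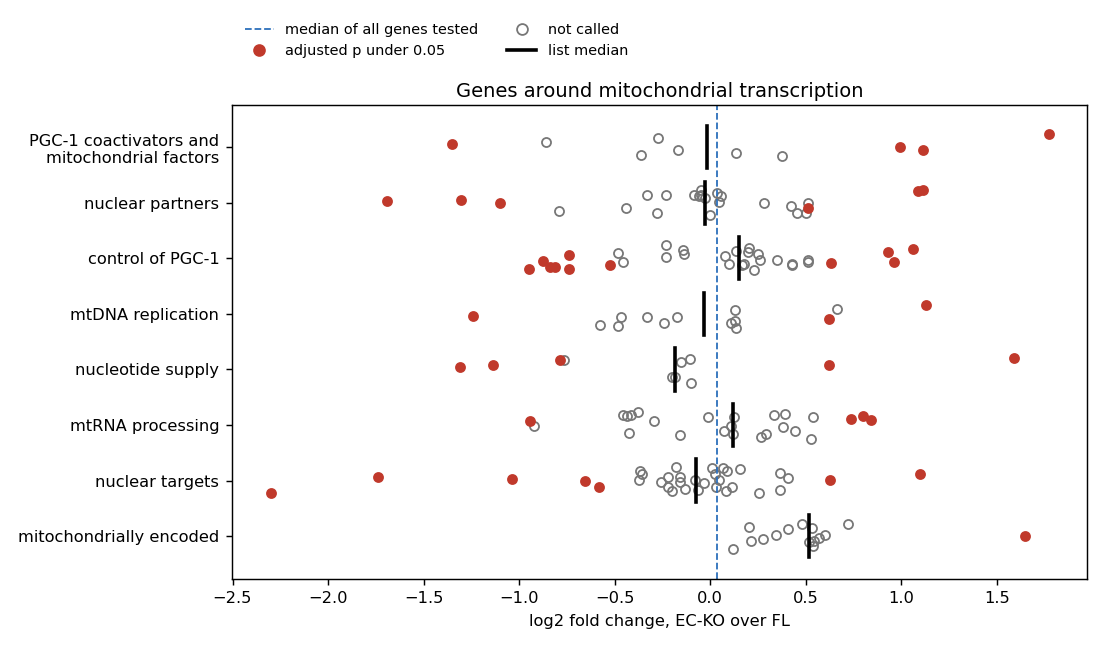
Log2 fold change of EC-KO over FL (horizontal axis) of the tested genes of 8 lists (rows), with filled points for an adjusted p under 0.05, a black line for the list median and a dashed line for the median of all genes tested. The list medians lie between -0.19 and 0.15, except that of the mitochondrially encoded genes at 0.52.

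The transcripts made by this machinery are those of the mitochondrial genome itself. All 15 mitochondrially encoded genes had a log2 fold change above 0, beside 51.8% of all genes tested (medians 0.52 and 0.03). Of the 15, however, 1 was called higher (6.67%, beside 13.5% of all genes) and 0 lower. At an unadjusted p under 0.05, edgeR gave 5 higher and 0 lower, beside 7540 of all 18562 genes in either direction. DESeq2 called 2 higher and 0 lower, beside 33.4% of all genes in either direction. The called gene was mt-Rnr1, the small ribosomal RNA that TFB1M methylates, at 1367, 1648 and 746 CPM in EC-KO 1, 2 and 3, against 457, 363 and 379 CPM in FL 1, 2 and 3 (log2 fold change 1.65 ± 0.28 SE; edgeR, adjusted p = 0.00430). The lowest knockout value, in EC-KO 3, was still above the highest floxed value. The large ribosomal RNA mt-Rnr2 was not called (0.48; edgeR, adjusted p = 0.174), and its groups overlapped. For mt-Co1, the most abundant of the 15, levels were 20251, 21706 and 13889 CPM in EC-KO 1, 2 and 3, against 18948, 14495 and 14709 CPM in FL 1, 2 and 3, and the groups overlapped (0.21; edgeR, adjusted p = 0.535). Libraries were made from polyadenylated RNA, so the levels of both ribosomal RNAs are uncertain. Counts of mt-Co2, mt-Co3, mt-Atp6, mt-Atp8, mt-Nd3 and mt-Nd4l were low (0.517 to 13.3 CPM) and are uncertain too. Alignments to several places or to overlapping genes were set aside and are known per library only. Their part in these low counts was not tested. Calls of this list numbered 3 without EC-KO 3 and 3 without FL 1.

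Mitochondrially encoded genes took 4.36%, 4.26% and 3.07% of gene counts in EC-KO 1, 2 and 3, against 3.41%, 2.55% and 2.48% in FL 1, 2 and 3. FL 1 lay above EC-KO 3, so the groups overlapped. The mean share was 3.90 ± 0.719% in EC-KO and 2.82 ± 0.519% in FL (SD, n = 3 each), a difference of 1.08 percentage points (exact permutation test, two-sided, p = 0.200). EC-KO 3, which had the lowest share of the knockout libraries, had the highest level of Ppargc1a. For Tfb2m, EC-KO 3 (33.1 CPM) was nearly equal to EC-KO 1 (32.4 CPM), the library with the highest share. A link between these levels and the share was not tested.

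**Figure D5:**
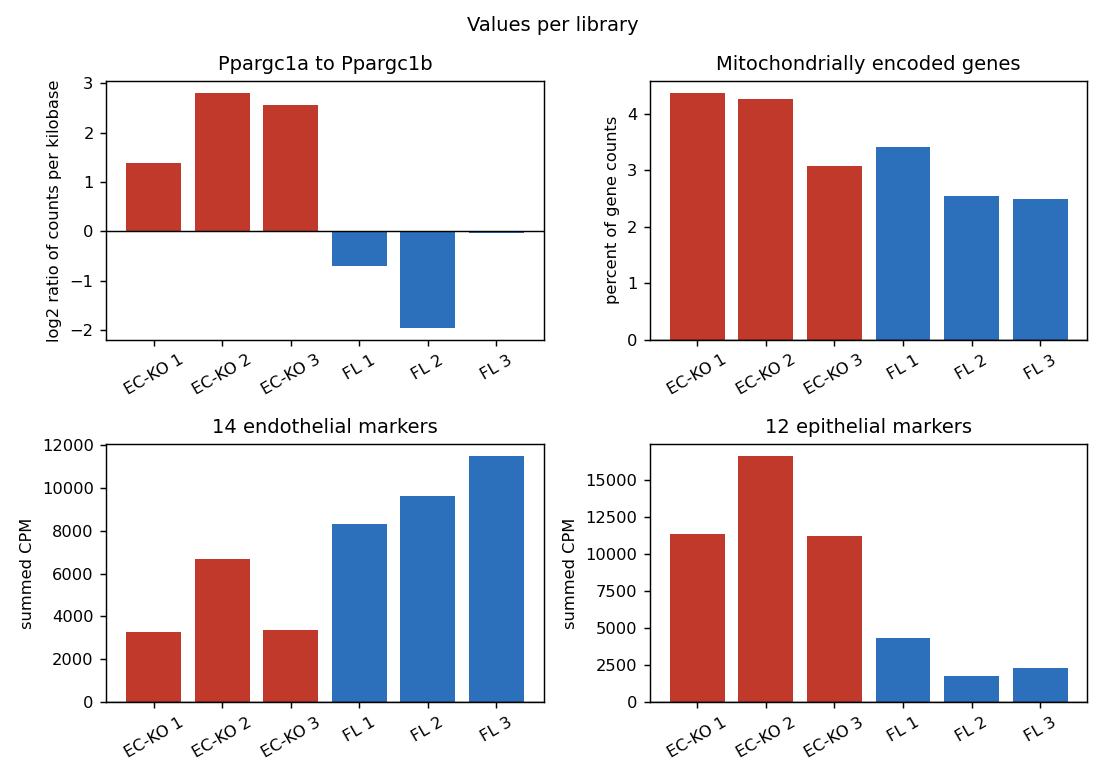
Bars per library (red EC-KO, blue FL) of the log2 ratio of Ppargc1a to Ppargc1b, of the percent of gene counts on mitochondrially encoded genes, and of the summed CPM of 14 endothelial and 12 epithelial markers. The ratio is above 0 in the 3 EC-KO libraries and below 0 in the 3 FL libraries, while the mitochondrial shares of EC-KO 3 and FL 1 cross.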

How the data were processed

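The authors deposited raw gene counts with a column for each library, laid out as by featureCounts per the file headers, and counts of alignments by class. The tools STAR 2.7.10b and featureCounts (version 2.0.3) and the build mm10 are named in the submitters' processing notes. The sources used here do not state the annotation release or the strand setting. The other deposited value used, the gene length (other), is the summed exon length in bases, per the file headers. A further 2 per-sample columns match no sample in the labels and were not used. Of 56941 identifiers, 51948 took a symbol from GENCODE M21. The table's own gene starts matched that GRCm38 annotation for 2.90% of genes, so GRCm38 coordinates were taken from the annotation by identifier.

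Alignments assigned to genes were 72.4% to 74.7% in EC-KO and 75.5% to 77.8% in FL, and depth was 26.7 M to 34.3 M counts per library. Counts were fitted with edgeR 4.0.16 in R 4.3.3: filterByExpr (18562 genes kept), TMM scaling, robust glmQLFit and glmQLFTest over all 6 libraries without covariates, two-sided, Benjamini-Hochberg adjustment, threshold 0.05. Each SE was derived from the fold change and its F statistic, and so adds nothing to the p-value. Single values per library were tested with an exact permutation test. Alternatives used DESeq2 1.42.0, limma-voom (limma 3.58.1), other scalings and filters, a replicate block and left-out libraries. The scripts were tested on simulated counts. Figures used Python 3.11.15 and matplotlib 3.10.9.

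The members, the lists and the rule for named genes were chosen with earlier results of these data known. The rule named all members, Fundc1, in each list up to 2 risen and 2 fallen genes with the smallest p and an average log2 CPM of at least 1, and the 3 genes nearest in profile to Ppargc1a, Ppargc1b and Tfam. Lists were described by counts and medians, with no set test.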

Additional observations from a re-analysis of the deposited data

How the results depend on the processing

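Under RLE scaling, library sizes without mitochondrially encoded genes, both other filters, DESeq2 and a fit that was not robust, 3 members rose and 1 fell, as with the settings used. With upper-quartile scaling, library size alone, limma-voom, the replicate block and without EC-KO 2 and FL 1 together, the number of members that fell was 0, since Ppargc1b missed the threshold (edgeR or limma, adjusted p = 0.0588, 0.0648, 0.0656, 0.0681 and 0.187). Upper-quartile scaling and library size alone moved the median gene to 0.11 and 0.12 and made 57.4% and 57.5% of all calls higher, beside 50.01% with TMM. Without 1 library the members that rose numbered 2 to 4 and those that fell 0 to 1. Genes of the pathway lists were called higher in 17 cases and lower in 20 (4 to 24 and 12 to 30 without 1 library, 33 and 31 without EC-KO 2 and FL 1 together, each the closest of its group to the opposite one by endothelial markers, which does not hold for EC-KO 2 by epithelial markers). Calls over all genes numbered 5029, with 2547 to 6740 without 1 library, 7554 without EC-KO 2 and FL 1 and 12002 under scaling to endothelial markers.

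Scaling to endothelial marker counts moved the median gene to 1.30. It gave 7 members higher and 0 lower, and 120 pathway genes higher and 0 lower, and Fundc1 was at 0.26 (edgeR, adjusted p = 0.490). Relative to 0, it turned the sign of Esrra (0.97), Gabpa (1.14), Tfb1m (0.35), Polrmt (1.00), Prkaa1 (0.58), Prkaa2 (0.28), Kat2a (0.41), Mapk14 (0.46), Rnf34 (0.37), Nr3c1 (0.18), Cpt1a (0.25), Dna2 (0.10), Rrm2b (0.098) and Fastkd1 (0.30), each of which stayed below the median gene. By coding length 1 of 10 members kept its place in the order of levels in FL. Same-numbered libraries deviated with correlations of 0.05, 0.07 and -0.18 from their group means, and EC-KO 2 correlated best with FL 3. These values gave no sign of a pairing by number, but 3 libraries per group cannot exclude a weak one. The replicate block gave 3 members higher and 0 lower and 3848 calls over all genes. Depth limits Ppargc1b and Tfb1m, with 18 to 86 and 23 to 57 counts per library, and Ppargc1a in FL, with 30 to 87.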
